A study of Mus musculus with 56 samples.

Results

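The genes described here are 10 targets of the extracellular signal-regulated kinase (ERK) that respond to activated fibroblast growth factor (FGF) receptors. They were chosen by name as the rows of the deposited liver count table with the symbols Spry2, Spry4, Spred1, Spred2, Dusp6, Dusp4, Etv5, Egr1, Fos and Myc, which are 10 of its 21935 genes, and all 10 passed the filter on low counts that 14105 genes passed. The livers came from 56 male C57BL/6J mice, 8 in each of 7 groups, which received chow or the AMLN diet (rich in trans-fat, fructose and cholesterol) for 36 weeks before dosing and during 8 weeks of dosing. One group was chow-fed and received vehicle. The other 6 groups received the AMLN diet, which leads to obesity and metabolic dysfunction-associated steatohepatitis (DIO-MASH), and were given vehicle, low-dose zalfermin (0.05 mg/kg), high-dose zalfermin (0.2 mg/kg), low-dose semaglutide (3 ug/kg), high-dose semaglutide (120 ug/kg) or the low doses of zalfermin and semaglutide combined, subcutaneously once daily. Zalfermin acts as a long-lasting version of the hormone FGF21, and semaglutide activates the glucagon-like peptide-1 receptor. The doses of the combination are those of the study's methods, since the series' design text names the high doses. Whole liver samples were sequenced, so that fewer cells of a type and less RNA per cell cannot be told apart.

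FGF21 binds FGF receptors together with the co-receptor β-klotho (Klb), and the activated receptor signals through RAS, RAF and MEK to ERK. ERK in turn induces genes that brake the same pathway: the Sprouty proteins (Spry2, Spry4) and their relatives (Spred1, Spred2) act between the receptor and RAF, and the phosphatases Dusp6 and Dusp4 remove phosphate from ERK. Etv5 is a transcription factor of the ETS family induced by FGF signals, and Egr1, Fos and Myc are transcription factors whose mRNAs rise and fall quickly after growth factor or stress signals. In the liver ERK also answers to other ligands, such as those of the epidermal growth factor (EGF) receptor and of the hepatocyte growth factor receptor Met, so none of these genes reads FGF receptors alone.

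RefSeq promoters on build GRCm38.p6 were matched for 6 of the 10 members. The 250 bases before the start of Dusp6, Spred1 and Spry2 are shown because these members separated chow-fed from DIO-MASH vehicle mice, and those of Fos because its values divided the chow-fed group. Capitals mark the motifs searched on both strands, which were the ETS site CCGGAA, the short site TGACG of cyclic AMP response elements, the AP-1 site TGANTCA and the CArG box of serum response factor.
Dusp6, chr10:99262981-99263230, plus strand: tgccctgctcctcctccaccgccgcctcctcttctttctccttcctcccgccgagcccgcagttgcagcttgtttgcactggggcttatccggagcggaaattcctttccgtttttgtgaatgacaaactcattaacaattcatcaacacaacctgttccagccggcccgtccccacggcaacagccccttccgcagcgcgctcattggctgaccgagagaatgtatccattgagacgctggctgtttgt
Spred1, chr2:117120821-117121070, plus strand: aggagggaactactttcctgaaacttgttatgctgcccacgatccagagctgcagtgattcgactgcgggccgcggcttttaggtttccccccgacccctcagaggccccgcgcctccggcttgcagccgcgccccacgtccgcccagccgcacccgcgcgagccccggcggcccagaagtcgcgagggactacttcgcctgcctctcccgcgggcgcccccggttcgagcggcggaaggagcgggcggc
Spry2, chr14:105896820-105897069, minus strand: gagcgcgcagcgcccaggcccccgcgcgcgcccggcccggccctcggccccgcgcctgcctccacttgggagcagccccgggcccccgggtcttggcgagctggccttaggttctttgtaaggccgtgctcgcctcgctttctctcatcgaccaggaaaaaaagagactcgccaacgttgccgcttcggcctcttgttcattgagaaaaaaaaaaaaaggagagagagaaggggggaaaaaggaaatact
Fos, chr12:85473640-85473889, plus strand: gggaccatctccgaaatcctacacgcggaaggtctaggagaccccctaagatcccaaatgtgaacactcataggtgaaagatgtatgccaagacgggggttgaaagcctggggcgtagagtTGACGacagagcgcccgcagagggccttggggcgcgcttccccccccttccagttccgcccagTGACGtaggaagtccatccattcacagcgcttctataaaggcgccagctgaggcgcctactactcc
The Fos sequence held 2 sites TGACG, and the other 3 sequences held none of the motifs, although CCGGAA occurred once in Spry2 just after its start. Of all 32851 promoters in the table (with 50 bases after the start included), 20.8% held TGACG, 14.9% held CCGGAA, 7.81% held TGANTCA and 1.63% held a CArG box. The sequences of Spred1 (70.8% G or C) and Spry2 (62.4%) were richer in these bases than the median promoter (52.4%), and that of Dusp6 (56.4%) lay nearer to it.

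Counts on genes summed to between 5228187 and 20885786 reads per mouse (median 12206788), and levels are given as CPM, counts scaled to the normalized library size. Mice are numbered from 1 to 8 within a group in the order of the numbers in their labels, which fall into 4 runs called number series A to D here. What the runs stand for is not stated. Series D holds 3 mice, chow-fed mice 7 and 8 and DIO-MASH vehicle mouse 8. A pair of livers stood apart from their groups. The summed level of 5 cholangiocyte markers was 271 CPM in chow-fed mouse 8 and at most 15.1 CPM in the other chow-fed mice. In low-dose semaglutide mouse 6, markers of hepatic stellate cells summed to 156 CPM and those of monocyte-derived macrophages to 67.0 CPM, against 478 to 729 CPM and 205 to 542 CPM in the other 7 mice of that group. The study left out 1 low-dose semaglutide mouse as an outlier, which the labels do not mark, and all 56 mice were kept here. Mouse 6 was the lowest of its group in 6 members (Spry2, Dusp6, Dusp4, Etv5, Egr1 and Myc) and the highest in Spry4 and Spred2. With mouse 6 left out, low-dose semaglutide still gave 0 members past the threshold against DIO-MASH vehicle.

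Divided by exon length, the most abundant member over all mice was the phosphatase gene Dusp6, with 15.2 CPM per kilobase. Egr1 (6.44 CPM per kilobase) and Spred1 (5.58) followed, then Myc (2.76), Spred2 (2.503), Spry4 (2.02), Spry2 (1.29), Etv5 (1.24), Dusp4 (1.04) and Fos (0.88). Members also differed in how they varied between mice of a group. The biological coefficient of variation from edgeR, the spread beyond counting error, was 69.1% for Myc, 61.9% for Egr1, 56.7% for Fos and 47.7% for Spry4, against a median of 18.9% over all genes tested. For Spry2, Dusp4 and Etv5 it was 33.6%, 26.5% and 24.6%. Dusp6 (20.4%) and Spred2 (19.9%) were close to the median, and Spred1 (13.7%) was below it. Ordered by their means, which in itself keeps neighbouring steps small, neighbouring groups overlapped in all 60 neighbouring pairs (6 per member). Of these pairs, 58 differed by less than the larger of their standard deviations, which does not show that the groups are alike. The other two were the steps up from the chow-fed mice to DIO-MASH vehicle for Spred1 and to low-dose zalfermin for Dusp6.

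**Figure D1:**
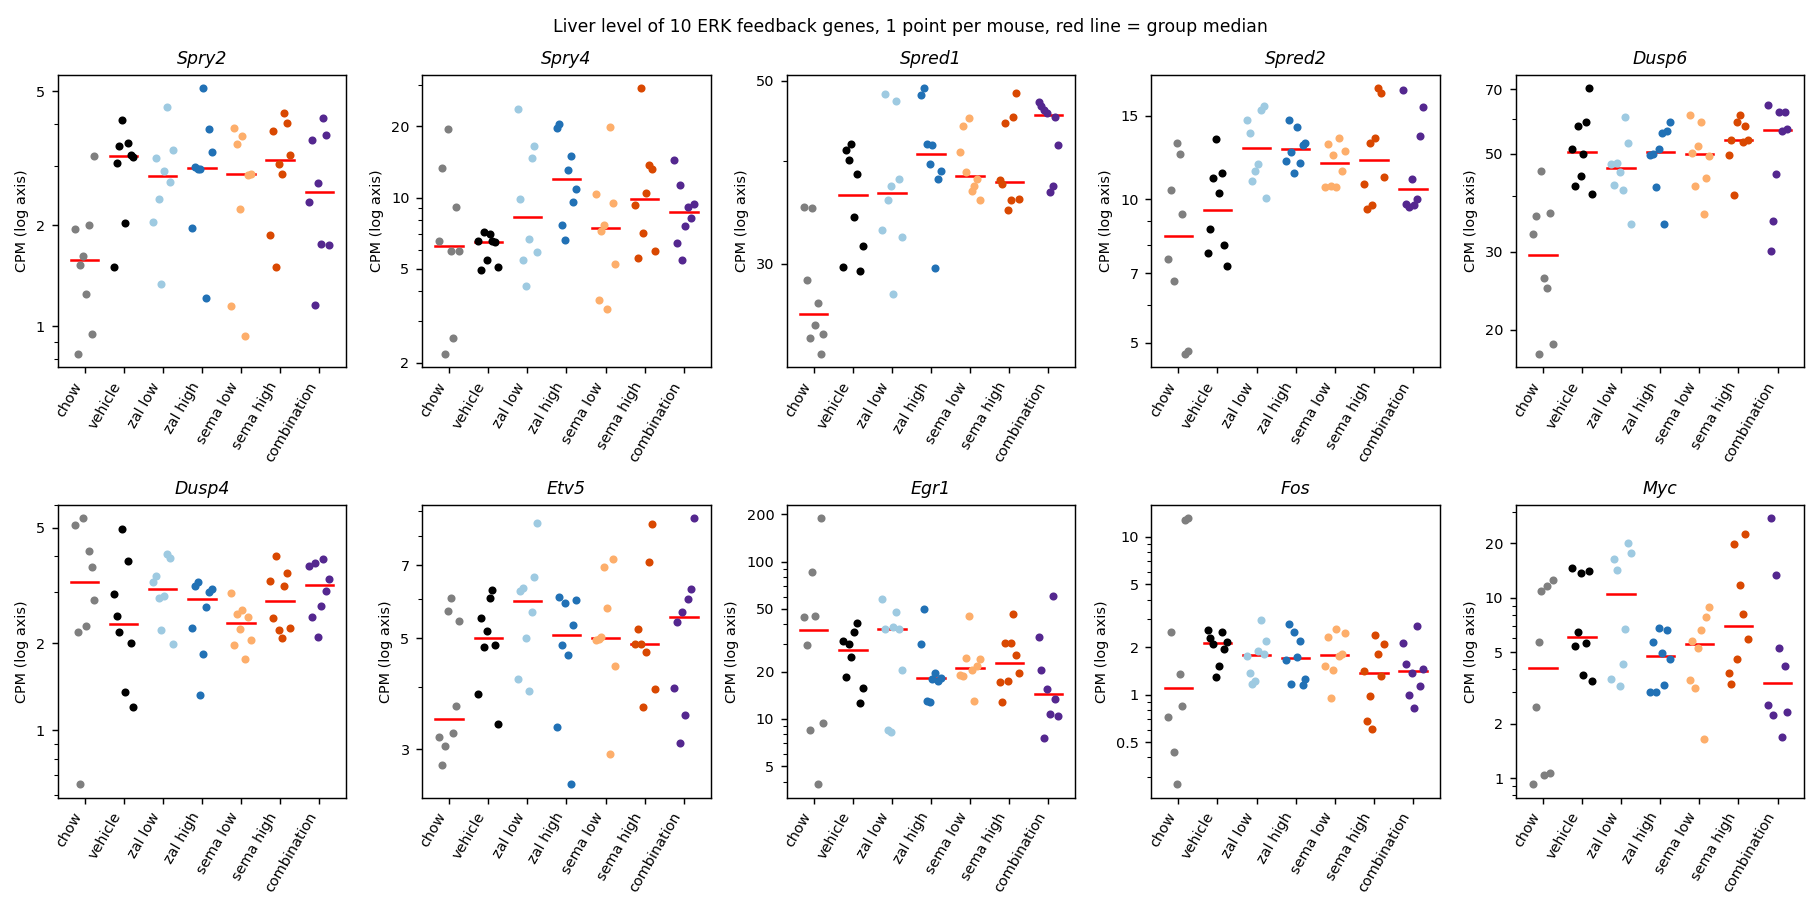
Level of each of the 10 members in CPM (log axis) in every mouse by group, 1 point per mouse in label order with the group median as a red line. Spry2, Spred1 and Dusp6 lie lower in the chow-fed mice, Spry4 is tightly packed in DIO-MASH vehicle, and 2 chow-fed mice lie far above all other mice for Fos.

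The comparison of chow-fed with DIO-MASH vehicle mice asks which members the disease model itself changed. The pathway brakes Dusp6, Spry2 and Spred1 were lower in the chow-fed mice, and no member passed the threshold in the other direction. That is 3 of 10 members, beside 55.4% of all genes tested that passed the threshold in this comparison and 28.9% that passed it as lower in chow-fed mice, so the members were called lower about as often as all genes. The threshold was an adjusted p of 0.05 from edgeR's quasi-likelihood test, with the Benjamini-Hochberg method applied to all 14105 genes.

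Dusp6, which inactivates ERK, lay between 17.6 and 45.6 CPM in chow-fed mice (median 29.5) and between 40.5 and 70.5 CPM in DIO-MASH vehicle mice (median 50.5). The groups overlapped only through chow-fed mouse 4, and 7 of the 8 chow-fed mice were below the lowest vehicle mouse. The log2 fold change, chow-fed over vehicle, was -0.79 ± 0.15 (SE, n = 8 per group), with an adjusted p of 1.54e-05 by edgeR. Spry2, a Sprouty gene, ranged from 0.83 to 3.20 CPM in chow-fed mice (median 1.57) and from 1.501 to 4.12 CPM in vehicle mice (median 3.21). All 8 chow-fed mice were below the vehicle median, although this gene rested on as few as 7 reads in a mouse. Its log2 fold change was -0.85 ± 0.29 (SE), with an adjusted p of 0.0108. Spred1, an inhibitor of RAS and RAF signaling, ranged from 23.3 to 35.2 CPM (median 26.1) and from 29.4 to 41.9 CPM (median 36.4). Here 6 of 8 chow-fed mice were below the lowest vehicle mouse, and the change was smaller, at -0.35 ± 0.10 (SE, adjusted p = 0.00296). Inside each of number series A, B and C, the chow-fed minus vehicle difference in mean log2 CPM was negative in all 3 for each of these genes, from -0.43 to -1.51 for Dusp6, from -0.68 to -1.01 for Spry2 and from -0.14 to -0.66 for Spred1. Series D holds only 1 vehicle mouse, and series B only 1 chow-fed mouse. All 3 calls held in each of 24 fits without 1 mouse and under 7 other alternatives.

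Marker genes of cell types differed strongly between the same groups. In chow-fed livers all 8 hepatocyte markers were higher, and 6 of 8 stellate cell, 6 of 6 monocyte-derived macrophage, 4 of 4 T cell, 4 of 4 B cell and 5 of 5 proliferation markers were lower. The summed stellate cell markers ranged from 87.7 to 179 CPM in chow-fed and from 608 to 1134 CPM in vehicle mice, and the macrophage markers from 49.8 to 86.0 and from 325 to 714 CPM. The part of these cells in the lower Dusp6, Spry2 and Spred1 was not tested. Of the 6 Kupffer cell markers 2 rose and 2 fell, of the 6 sinusoidal endothelial markers 2 rose and 3 fell, and 2 of 5 cholangiocyte markers fell. Among markers of blood cells, 3 of 3 tested neutrophil markers and 1 of 3 red blood cell markers were called higher in chow-fed mice. The summed neutrophil markers had nearly equal medians, 1.811 CPM in chow-fed and 1.795 CPM in vehicle mice. Their highest values were 36.95 CPM in a chow-fed mouse and 2.775 CPM in a vehicle mouse.

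The remaining brakes and Etv5 gave no call. Spry4 spread from 2.17 to 19.6 CPM in chow-fed mice and only from 4.91 to 7.15 CPM in vehicle mice, and its log2 fold change of 0.43 had a 95% interval from -0.29 to 1.16. For Spred2 the log2 fold change was -0.15 (interval -0.47 to 0.17), for Dusp4 0.37 (-0.10 to 0.84), and for Etv5 -0.26 (-0.67 to 0.15). The intervals of Spred2 and Etv5 leave room for a fall in chow-fed mice of the size seen for Spred1. Those of Spry4 and Dusp4 leave room for a rise of that size, but not for such a fall.

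The immediate early members Egr1 and Fos spread widely in the chow-fed group. Egr1, a zinc finger factor, ran from 3.84 CPM in chow-fed mouse 6 to 189 CPM in mouse 7, around a median of 36.9 CPM, while the vehicle mice stayed between 12.7 and 40.6 CPM. Chow-fed mice thus lay both above and below the whole range of vehicle mice, 4 above and 3 below. The log2 fold change was 0.99 ± 0.46 (SE), with an adjusted p of 0.0596 by edgeR. Fos, the partner of Jun in the AP-1 factor, stood at 12.8 and 13.2 CPM in chow-fed mice 7 and 8 and between 0.27 and 2.48 CPM in the other 6 chow-fed mice (median 0.78). All vehicle mice lay between 1.29 and 2.57 CPM, so that 4 of the 6 were below every vehicle mouse, and chow-fed mice 7 and 8 were above every vehicle mouse. The log2 fold change of the group was 0.94 ± 0.42 (SE, adjusted p = 0.0543 by edgeR), and DESeq2 placed Fos past the threshold as higher in chow-fed mice (adjusted p = 0.0477), which gave it 4 members where edgeR gave 3. Without the 3 mice of series D, the log2 fold change of Fos turned to -0.93 with an adjusted p of 0.0174 by edgeR. Within series A, B and C, chow-fed minus vehicle Fos was -0.76, -1.57 and -1.43 in mean log2 CPM. The series D vehicle mouse had 2.16 CPM of Fos, inside the range of the other vehicle mice. What sets the other two mice of series D apart in Fos was not tested. Of 22 immediate early genes measured, mouse 7 exceeded chow-fed mice 1 to 6 in 7 and mouse 8 in 7, with 3 genes in common. The share of all genes in which either mouse exceeds chow-fed mice 1 to 6 was not counted. These counts therefore do not show a wider immediate early response in the 2 mice. Mouse 8, whose cholangiocyte markers stood out, had 9.35 CPM of Egr1 and 30.03 CPM of Klf4, and mouse 7 had 189 CPM of Egr1 and 1.30 CPM of Klf4.

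**Figure D2:**
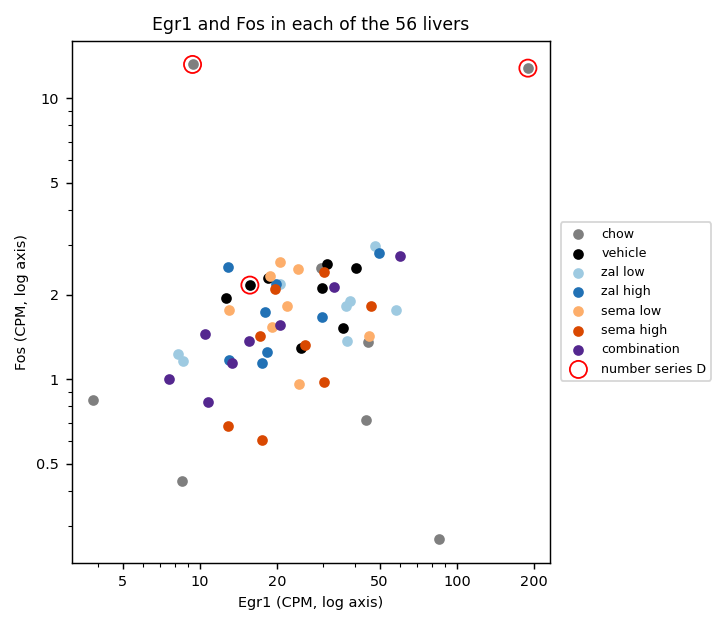
Fos against Egr1 in CPM (both axes log) in each of the 56 livers, coloured by group, with the 3 mice of number series D circled in red. Chow-fed mice 7 and 8 share 12.8 and 13.2 CPM of Fos but differ in Egr1 (189 and 9.35 CPM), and the circled vehicle mouse lies among the other vehicle mice.

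Myc, a driver of cell growth and ribosome production, ranged from 0.92 to 12.6 CPM in chow-fed mice (median 4.07) and from 3.46 to 14.5 CPM in vehicle mice (median 6.04). The groups overlapped broadly, and the log2 fold change of -0.53 had an interval from -1.56 to 0.50. Of 8 textbook Myc targets, Fbl (0.62), Nop56 (0.47) and Ncl (0.23), which serve ribosome assembly, were higher and Cad (-0.45), an enzyme of pyrimidine synthesis, was lower in chow-fed mice, on the log2 scale. The 3 textbook Egr1 targets all passed the threshold. The corepressors Nab1 (0.63) and Nab2 (0.69) were higher and Egr3 (-3.29, at a mean of only 0.20 CPM in vehicle mice) was lower. The called Myc and Egr1 targets stand beside 55.4% of all genes tested that were called in this comparison. They were named after their values were seen.

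The comparisons of treated with DIO-MASH vehicle mice ask whether an FGF21 analog or weight-lowering treatment moved these genes, and they share the same 8 vehicle mice. Of 50 tests (10 members in 5 treated groups), 2 passed the threshold, Spry4 under high-dose zalfermin and Spred1 under the combination, both upwards. Dusp6, Spry2, Spred2, Dusp4, Etv5, Egr1, Fos and Myc passed it in no treated group.

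High-dose zalfermin raised Spry4, a Sprouty gene, and no other member, which makes 1 of 10 beside 17.2% of all genes tested. Its 8 mice lay between 6.63 and 20.5 CPM (median 11.97), against 4.91 to 7.15 CPM in vehicle mice (median 6.50), and 7 of 8 were above the highest vehicle mouse. The log2 fold change was 1.06 ± 0.36 (SE, adjusted p = 0.0309 by edgeR), and the difference in mean log2 CPM was 1.34, 0.74 and 0.63 within series A, B and C. This call was lost without the 3 series D mice, of which only vehicle mouse 8 is in the comparison (adjusted p = 0.0537), and in 6 of 24 fits that each left out 1 mouse of either group or of low-dose semaglutide, which shares the fit (vehicle mouse 2, 4 or 8 or zalfermin mouse 1, 2 or 6), with a highest adjusted p of 0.0757. The count of members ranged from 0 to 2 over these fits. In the same comparison 7 of 8 hepatocyte and 1 of 6 Kupffer cell markers were higher, and 3 of 8 stellate cell, 4 of 6 monocyte-derived macrophage and 5 of 5 proliferation markers were lower. The summed macrophage markers ranged from 69.6 to 400.5 CPM under high-dose zalfermin, against 325 to 714 CPM in vehicle mice, and the stellate cell markers from 176 to 382 CPM, against 608 to 1134 CPM. Their part in the Spry4 values was not tested. Reads of Spry4 may include those of 2 small RNA genes annotated on the opposite strand, since the use of strand in counting is not stated. Spred2 rose by 0.41 ± 0.16 (SE) on the log2 scale with an adjusted p of 0.0595 by edgeR and 0.0443 by DESeq2, so DESeq2 gave 2 members.

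The other treated groups had Spry4 values of the same kind. Under low-dose zalfermin Spry4 ranged from 4.23 to 23.8 CPM (median 8.26), under low-dose semaglutide from 3.37 to 19.9 CPM (median 7.42), under high-dose semaglutide from 5.56 to 29.1 CPM (median 9.89) and under the combination from 5.46 to 14.5 CPM (median 8.64). Of the 40 treated mice, 27 were above the highest vehicle mouse and 3 below the lowest. The log2 fold changes against vehicle were 0.84, 0.42, 0.93 and 0.54 in the same order, with adjusted p from 0.156 to 0.767 by edgeR. High-dose zalfermin was not called different in Spry4 from high-dose semaglutide (log2 fold change 0.13, interval -0.56 to 0.83) or from low-dose zalfermin (0.22, interval -0.47 to 0.92). Both the narrow vehicle range and the wide treated range are visible in the plot of levels by group.

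The combination raised Spred1, 1 of 10 members beside 20.9% of all genes tested. Its mice lay between 36.6 and 47.1 CPM (median 45.4), against 29.4 to 41.9 CPM in vehicle mice (median 36.4), and all 8 were above the vehicle median and 5 above the highest vehicle mouse. The log2 fold change was 0.28 ± 0.10 (SE, adjusted p = 0.0435 by edgeR). Within series A and C the difference in mean log2 CPM was 0.40 and 0.37, and within series B it was -0.06. The call was lost with the number series as a covariate (adjusted p = 0.12), without series D (0.0757) and in 9 of 24 fits without 1 mouse, with vehicle mouse 1, 5, 7 or 8 or combination mouse 1, 2, 3, 4 or 7 left out (highest adjusted p 0.0798). Spred1 had medians of 36.6, 40.7, 38.4 and 37.7 CPM under low-dose zalfermin, high-dose zalfermin, low-dose semaglutide and high-dose semaglutide. DESeq2 also gave only Spred1 for the combination. In the same comparison 5 of 8 hepatocyte and 3 of 6 Kupffer cell markers were higher, and 6 of 8 stellate cell, 4 of 6 monocyte-derived macrophage, 5 of 5 proliferation, 1 of 6 sinusoidal endothelial, 1 of 4 B cell and 1 of 3 red blood cell markers were lower. The summed stellate cell markers ranged from 190 to 492 CPM in the combination. Their part in the Spred1 values was not tested.

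**Figure D3:**
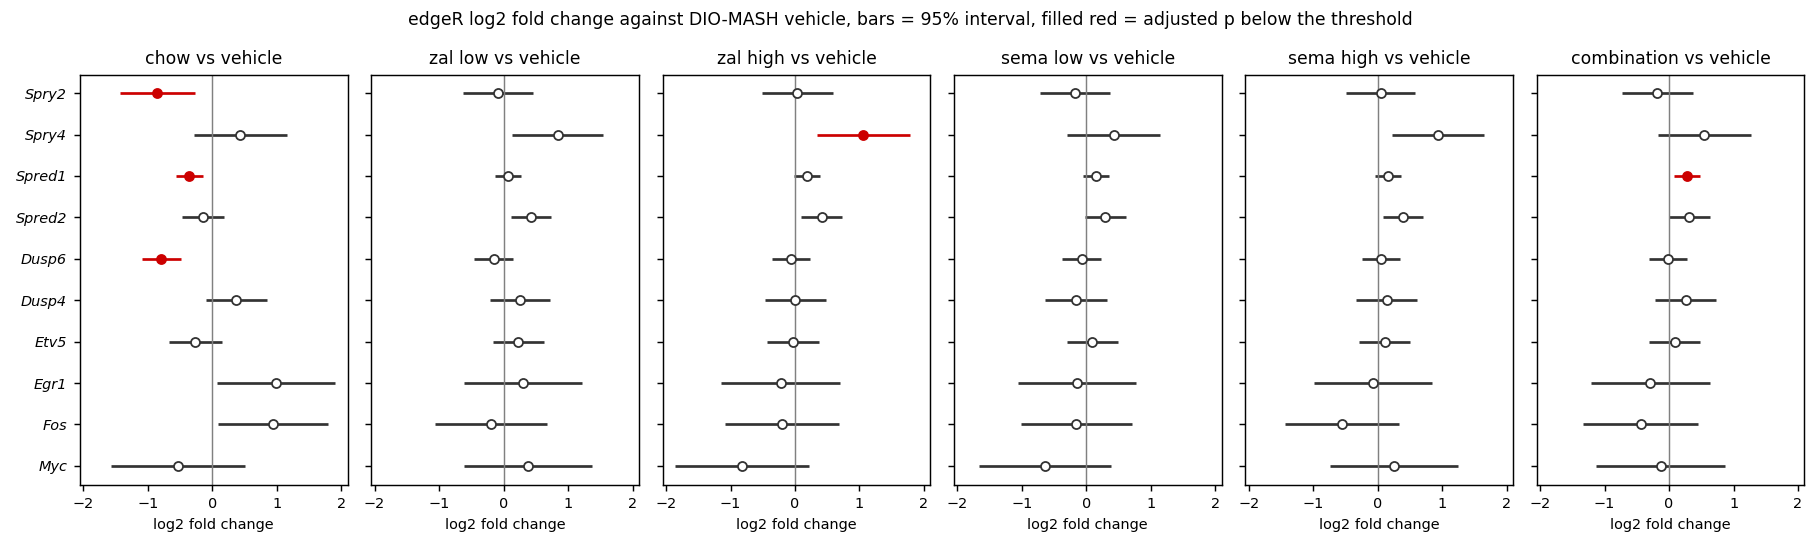
Log2 fold change of each member against DIO-MASH vehicle (edgeR) in the chow-fed and the 5 treated groups, with 95% intervals as bars and members past the threshold filled in red. The filled points are 3 for chow-fed mice, Spry4 for high-dose zalfermin and Spred1 for the combination, and most intervals include 0.

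Spred2, the second Spred gene, lay above the vehicle median in every treated mouse, although no treated group passed the threshold. Vehicle mice ranged from 7.26 to 13.4 CPM (median 9.503). The treated medians were 12.8 CPM for both zalfermin doses, 11.9 and 12.1 CPM for low- and high-dose semaglutide and 10.5 CPM for the combination. Of the 40 treated mice, all above the vehicle median, 13 were above the highest vehicle mouse. Log2 fold changes were 0.43, 0.41, 0.30, 0.39 and 0.31 in that order, with adjusted p by edgeR of 0.224, 0.0595, 0.599, 0.183 and 0.147. These are not 5 independent results, since each used the same 8 vehicle mice. The position of all 40 treated mice likewise rests on the median of those vehicle mice. Spred2 was the only member with this pattern, and the other members had between 10 (Fos) and 31 (Spred1) of 40 treated mice above the vehicle median. The share of all genes with every treated mouse above the vehicle median was not counted.

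For low-dose zalfermin no member passed the threshold by edgeR (0 of 10, with 2 at an unadjusted p under 0.05, Spry4 and Spred2), beside 0.468% of all genes. Low-dose semaglutide gave 0 of 10 by edgeR and 0 at an unadjusted p under 0.05, beside 0% of all genes. In both low-dose comparisons DESeq2 gave no adjusted p for any member, so it could make no call there. High-dose semaglutide gave 0 of 10 by both tools and 2 at an unadjusted p under 0.05, again Spry4 and Spred2, beside 2.43% of all genes. There 2 of 8 hepatocyte markers were higher, and 3 of 8 stellate cell, 4 of 4 B cell and 2 of 5 proliferation markers were lower. The widths of the intervals show what could have been seen. For Dusp6, the log2 fold change under high-dose zalfermin was -0.06 with an interval from -0.36 to 0.24, and under the combination -0.01 (-0.31 to 0.28). For Spry2 the interval under high-dose zalfermin ran from -0.51 to 0.58, for Dusp4 from -0.47 to 0.48 and for Etv5 from -0.43 to 0.37. The immediate early members were less certain still. Egr1 had a log2 fold change of -0.22 (-1.15 to 0.70) and Fos of -0.20 (-1.09 to 0.68).

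No change of Dusp6 was called in any treated group, with medians of 46.5, 50.5, 49.8, 53.8 and 56.6 CPM under low- and high-dose zalfermin, low- and high-dose semaglutide and the combination, beside 50.5 CPM in vehicle mice. None of the 40 treated mice exceeded the highest vehicle mouse and 6 were below the lowest. Spry2 medians ran from 2.503 CPM under the combination to 3.13 CPM under high-dose semaglutide. Dusp4 medians ran from 2.35 to 3.19 CPM and Etv5 medians from 4.87 to 5.93 CPM, in ranges that overlapped those of the vehicle mice (1.21 to 4.94 CPM and 3.37 to 6.24 CPM).

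Myc varied most within groups. Under high-dose zalfermin it lay between 3.02 and 6.77 CPM (median 4.74), a narrower range than the 3.46 to 14.5 CPM of vehicle mice. The log2 fold change was -0.82 with an interval from -1.87 to 0.22, and the difference in spread was not tested. Low-dose semaglutide ranged from 1.64 to 8.85 CPM (median 5.51). Low-dose zalfermin ranged from 3.23 to 20.1 CPM (median 10.5) and high-dose semaglutide from 3.33 to 22.7 CPM (median 7.01). Combination mouse 2 reached 27.6 CPM in a group with a median of 3.37 CPM. Fos lay between 0.61 and 2.96 CPM in all treated mice, and the group medians of Egr1 lay between 14.4 CPM under the combination and 37.3 CPM under low-dose zalfermin.

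Treated groups were also compared with each other, to ask whether dose, drug or the combination made a difference. No member passed the threshold in any of these 7 comparisons by edgeR or by DESeq2, although DESeq2 gave no adjusted p for Fos between the combination and high-dose zalfermin. The background was 6.62% of all genes for the combination against low-dose zalfermin, 4.21% against low-dose semaglutide, 0.503% against high-dose zalfermin and 1.89% against high-dose semaglutide. It was 1.84% for high- against low-dose zalfermin, 0% for high- against low-dose semaglutide and 0.447% for high-dose zalfermin against high-dose semaglutide. Over the 70 tests, 3 had an unadjusted p under 0.05: Spred1 was 0.21 higher in the combination than under low-dose zalfermin, and Myc was lower under high-dose zalfermin than under low-dose zalfermin (-1.20, interval -2.24 to -0.15) and than under high-dose semaglutide (-1.07, -2.12 to -0.03), on the log2 scale. The 95% intervals extended between 0.20 and 1.05 log2 units to either side of the estimate. The low-dose interaction is the departure of the combination from the sum of both low-dose effects on the log2 scale. It gave 0 of 10 members by edgeR and 0 at an unadjusted p under 0.05, beside 0.0142% of all genes. DESeq2 gave no adjusted p here for Spry2, Dusp4, Etv5, Fos and Myc, and called none of the remaining members. Spred2 came nearest with -0.41 (interval -0.85 to 0.03).

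Set against chow-fed mice, mice on both high doses and on the combination still had more of several brakes. High-dose zalfermin had 6 of 10 members past the threshold (37.2% of all genes tested), high-dose semaglutide 5 (39.9%) and the combination 5 (32.4%), and these 3 comparisons share the same chow-fed mice. DESeq2 gave 6, 5 and 5 members in that order. Spred1 was higher by 0.55, 0.51 and 0.63 on the log2 scale in that order, with adjusted p of 3.82e-05, 7.19e-05 and 5.06e-06 by edgeR. In the combination its 8 mice lay above all chow-fed mice (36.6 to 47.1 against 23.3 to 35.2 CPM), the only member without overlap in these 3 comparisons, beside 2.65% of all genes in that comparison. Dusp6 was higher by 0.73, 0.84 and 0.78. Both Spred1 and Dusp6 kept these calls in the fits without 1 mouse and under the 7 other alternatives. Spry2 was higher by 0.89 under both high doses and by 0.67 under the combination, where the adjusted p was 0.0718. Spred2 was higher by 0.56, 0.53 and 0.46, and lost its call in all 3 without the series D mice (adjusted p from 0.0585 to 0.191), which hold its 2 lowest chow-fed values (4.732 and 4.7998 CPM). In the combination its call was also lost without chow-fed mouse 7 or 8 or combination mouse 1 or 8 (adjusted p of up to 0.0774).

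In the same comparisons Fos was called lower than in chow-fed mice, by -1.15, -1.50 and -1.39 on the log2 scale, and Egr1 lower under high-dose zalfermin (-1.22) and the combination (-1.29). None of these 5 calls was left without the 3 series D mice, with the number series as a covariate (adjusted p of 0.159 and 0.135 for Egr1 under high-dose zalfermin and the combination, and from 0.4999 to 0.983 for Fos) or when only the groups compared were fitted (from 0.0928 to 0.207). Without series D the Fos values turned to 0.73, 0.38 and 0.49 with adjusted p from 0.0864 to 0.384 by edgeR, and Egr1 fell to -0.71 and -0.78 with adjusted p of 0.216 and 0.183. Without chow-fed mouse 7 alone, the adjusted p of Egr1 became 0.346 and 0.297, and its calls were also lost without chow-fed mouse 4, without high-dose zalfermin mouse 3, 4, 5, 7 or 8, and without combination mouse 3, 5, 7 or 8. The Fos calls were lost without chow-fed mouse 7 or 8, with adjusted p of up to 0.277, 0.0688 and 0.130 in the order above, and that of high-dose zalfermin also without its mouse 3, 7 or 8. The counts without series D were 3 for high-dose zalfermin, 3 for high-dose semaglutide and 2 for the combination.

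Within groups, members that moved together were sought by correlating log2 CPM over 56 mice after subtracting group means. Of 45 pairs, 4 passed the threshold of 0.05 after Benjamini-Hochberg adjustment of two-sided permutation tests (100000 permutations within groups), all of them positive. Spry4 and Egr1 had the highest correlation (Pearson r = 0.58, permutation p = 6e-05, adjusted p = 0.0027; Spearman rho = 0.58, permutation p = 2e-05), with a positive r in 6 of 7 groups. Without the 2 mice farthest from the median of Spry4, both chow-fed, r was 0.51. It was 0.61, 0.16 and 0.78 within number series A, B and C. Spred1 and Spred2 followed (r = 0.50, permutation p = 0.00025, adjusted p = 0.00562; rho = 0.56, permutation p = 9e-05), positive in all 7 groups and 0.53 without the 2 farthest mice. Their r was 0.22, 0.48 and 0.74 within the series. Spry2 and Etv5 came next (r = 0.47, permutation p = 0.00078, adjusted p = 0.0117; rho = 0.42, permutation p = 0.0025), also positive in all 7 groups, but 0.34 without the 2 farthest mice and -0.33 within series C. The last pair, Spry4 and Dusp4 (r = 0.41, permutation p = 0.0034, adjusted p = 0.0383; rho = 0.38, permutation p = 0.00609), fell to 0.25 without chow-fed mice 3 and 4 (permutation p = 0.0504), and was 0.36 in the 48 mice on the AMLN diet. Its r was 0.35, -0.06 and 0.57 within the series.

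Other pairs of related members did not pass. Spry2 and Spry4, both Sprouty genes, had r = -0.35 (adjusted permutation p = 0.0709), positive in 1 of 7 groups. Egr1 and Fos had r = 0.28 (adjusted permutation p = 0.401), which was 0.17 in the 8 chow-fed mice and 0.48 in the 48 mice on the AMLN diet. Dusp6 and Egr1 had r = 0.77 in the chow-fed and 0.15 in the AMLN mice (0.40 over all, adjusted permutation p = 0.089). With number series means also removed, 10 pairs passed in place of 4.

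**Figure D4:**
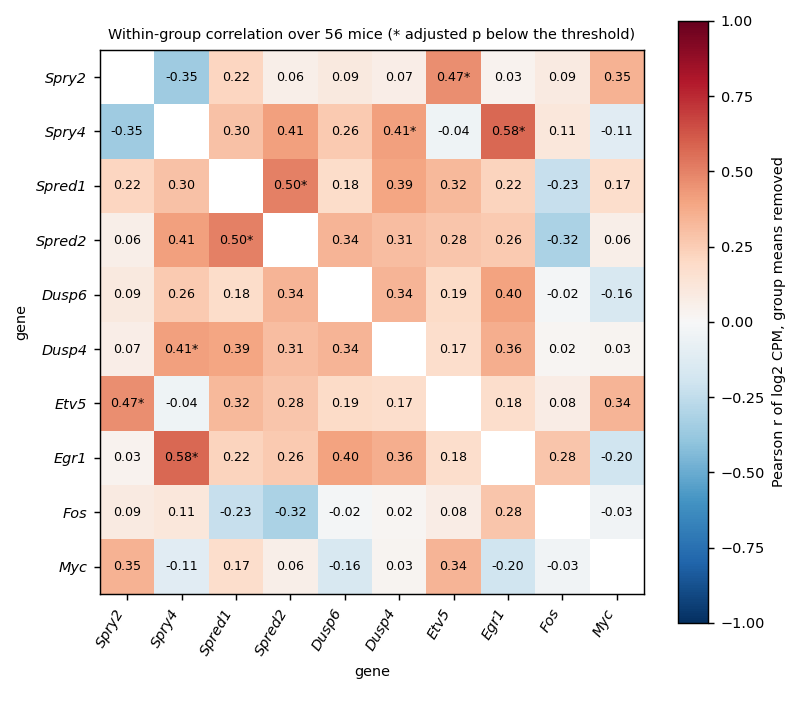
Pearson r of log2 CPM between each pair of members over 56 mice after subtracting group means, with colour and number for r and an asterisk for an adjusted permutation p below the threshold. The 4 starred pairs are Spry4 with Egr1 (0.58), Spred1 with Spred2 (0.50), Spry2 with Etv5 (0.47) and Spry4 with Dusp4 (0.41), and Spry2 with Spry4 is blue (-0.35).

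Among 11874 genes with a mean of at least 1 CPM, the 3 most like each member over all 56 mice were found by Pearson r of log2 CPM, as a description. They were Clstn1, Pak6 and Pygo1 for Spry2 (r from 0.80 to 0.81) and Ptprj, Snx33 and Pan3 for Spred2 (0.76 to 0.79). For Dusp6 they were Rem1, C5ar1 and Fam102b (all 0.73), for Spry4 Bmf, Sdc4 and Sox5 (0.68 to 0.69) and for Spred1 Cyp2a4, Shank2 and Lepr (0.67 to 0.69). Etv5 was most like Casz1, Efnb1 and Arhgef5 (0.61 to 0.64), Myc like Rgs3, Cish and Abr (0.60 to 0.64) and Dusp4 like Abcc10, Cep152 and Zfp689 (0.50 to 0.56). The nearest genes to Fos were Acta2, Slc28a2 and Plac8 (0.58 to 0.63), and Egr1 was nearest to Junb, itself an immediate early gene, with Klf3 and Rtel1 (0.52 to 0.56). Part of these values comes from differences between groups. With group means removed the r of Spred1 with Lepr fell from 0.67 to 0.24, while that of Spry2 with Clstn1 was 0.77.

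Upstream of the members, the receptor genes Klb and Fgfr4 changed. Chow-fed and vehicle mice did not overlap in Klb, the co-receptor through which FGF21 acts, as in 16% of all genes tested. Klb ranged from 42.1 to 63.1 CPM in chow-fed mice (median 48.8) and from 15.2 to 34.9 CPM in vehicle mice (median 26.1). Its log2 fold change against vehicle was 1.02 in chow-fed mice, 0.78 under high-dose zalfermin, 0.68 under the combination and 0.51 under high-dose semaglutide, with adjusted p by edgeR of 5.11e-08, 8e-05, 0.000503 and 0.0412. Fgfr4, the main FGF receptor of hepatocytes, was higher by 1.06 in chow-fed mice, 0.67 in the combination and 0.44 under high-dose zalfermin. Combination mice (36.1 to 49.2 CPM) did not overlap vehicle mice (22.6 to 34.5 CPM) in Fgfr4, as in 3.98% of all genes tested. Fgfr1, Fgfr2 and Fgfr3, which the study names as the receptors through which FGF21 signals, gave no call against vehicle in any group. Their group medians were 8.34 to 13.5, 24.5 to 34.03 and 18.9 to 29.4 CPM. Fgfr4 is not among the receptors that the study's introduction names for FGF21 signaling, although its results report Fgfr4 together with them. Fgf21 itself, the endogenous hormone, was lower in chow-fed mice (-1.81 ± 0.43 SE, adjusted p = 0.000356) and under high-dose zalfermin (-1.10 ± 0.40 SE, adjusted p = 0.0478). Its level was low, from 0.12 to 2.65 CPM under high-dose zalfermin and from 1.94 to 6.33 CPM in vehicle mice. Whether the calls of Fgf21 and its receptor genes hold with a mouse left out was not checked, and that of Fgf21 under high-dose zalfermin lay close to the threshold. Low doses given alone changed none of these 6 genes past the threshold. Hepatocyte markers rose with the receptors, in 7 of 8 genes under high-dose zalfermin, 5 of 8 in the combination, 2 of 8 under high-dose semaglutide and 1 of 8 under low-dose zalfermin. Their part in the rise of Klb and Fgfr4 was not tested.

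**Figure D5:**
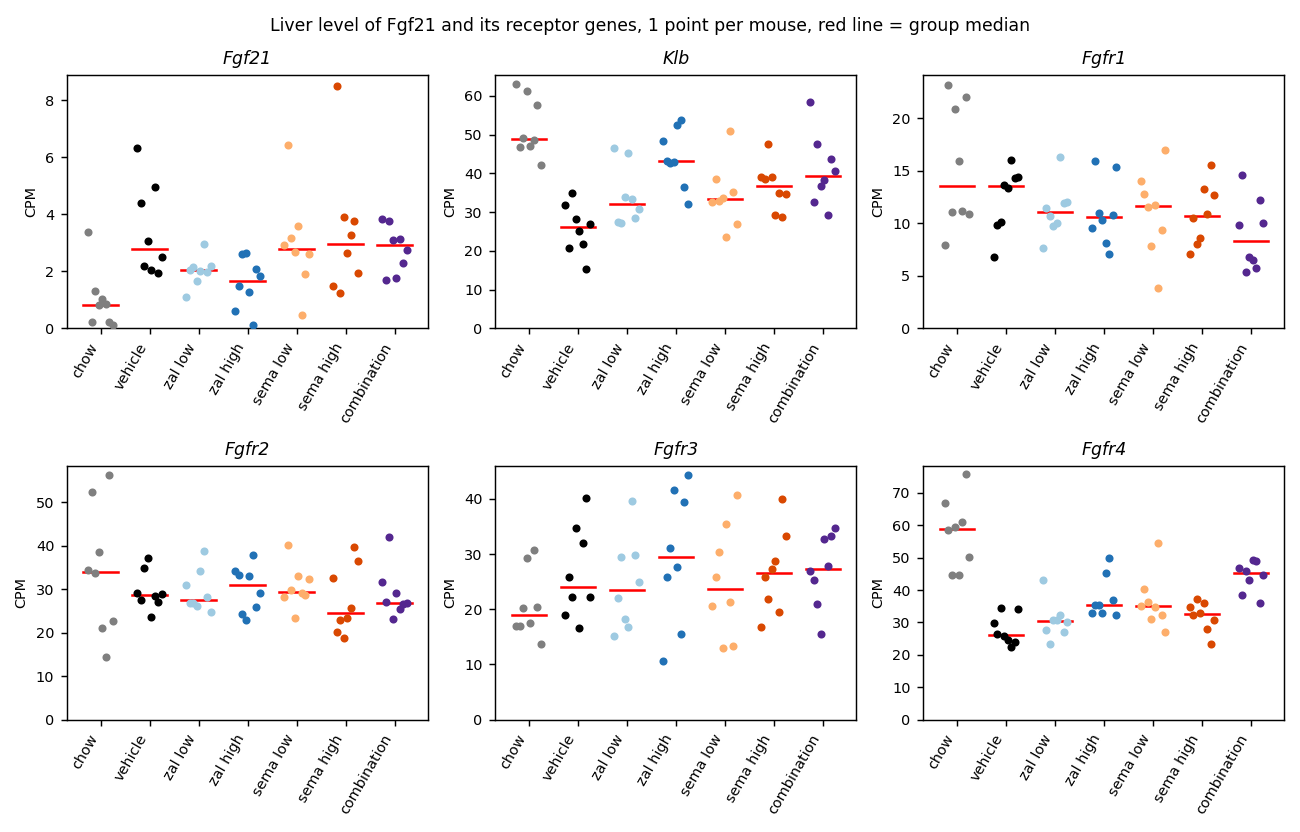
Level of Fgf21, Klb and Fgfr1 to Fgfr4 in CPM in every mouse by group, with the group median as a red line and axes from 0. By their medians, Klb and Fgfr4 are highest in chow-fed mice, lowest in DIO-MASH vehicle and intermediate in every treated group.

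Of the 32 genes of the whole receptor and kinase cascade, 11 were higher and 7 lower in chow-fed than in vehicle mice, with a median log2 fold change of 0.08 beside -0.01 for all genes tested, of which 26.5% were called higher and 28.9% lower. The 18 called genes are thus a share close to the 55.4% of all genes. High-dose zalfermin raised 4 and lowered 5, the combination raised 5 and lowered 4, high-dose semaglutide raised 1 and lowered 1, and both low doses changed 0, beside 17.2%, 20.9% and 2.43% of all genes called for the first 3 and 0.468% and 0% for low-dose zalfermin and low-dose semaglutide. The kinase Rps6ka3, which ERK activates, was lower in chow-fed mice (-0.59) and under high-dose zalfermin (-0.39), high-dose semaglutide (-0.38) and the combination (-0.36). Fgf1, a ligand of all FGF receptors, was higher by 0.97 under high-dose zalfermin and by 0.91 in the combination, where Fgf2 (-0.76) was lower. In chow-fed mice Fgf2 (-1.79) was lower and the RAF kinase Araf (0.55) higher. Under high-dose zalfermin Rps6ka1 (-0.67) was lower.

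Of 22 other ERK feedback and target genes tested, 10 were lower and 1 higher in chow-fed mice (median -0.68), beside 28.9% and 26.5% of all genes. The lower genes included Spry1 (-1.36), another Sprouty gene, the ERK phosphatase Dusp5 (-1.46), Etv1 (-1.54), an ETS factor, and Il17rd (-1.39), an inhibitor of FGF signaling. The cyclin Ccnd1 was lower (-1.0) and the EGF receptor inhibitor Errfi1 higher (0.65). High-dose zalfermin lowered 2 and raised 1 of the list, with Ccnd1 at -0.91 and Errfi1 at 0.62. The combination lowered Dusp5 (-0.98), Spry1 (-0.63) and Elk3 (-0.45) and raised Errfi1 (0.50). The remaining treated groups changed 0 of the 22. The 3 called genes under high-dose zalfermin and 4 in the combination stand beside 17.2% and 20.9% of all genes.

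Of 22 immediate early genes tested, 14 were lower and 4 higher in chow-fed mice (median -0.69), beside 28.9% and 26.5% of all genes. Egr2 (-4.00), Atf3 (-2.21), Klf6 (-1.52) and Ccn2 (-1.44) were among the lower ones and Klf4 (1.20), at 30.03 CPM in chow-fed mouse 8 and at most 3.07 CPM in the other chow-fed mice, and Ier2 (0.996) among the higher ones. High-dose zalfermin lowered Jun (-0.79), Atf3 (-0.78) and Ccn1 (-0.58), the combination lowered Egr2 (-1.46) and Ccn2 (-0.74) and raised Ier2 (0.49), and the other treated groups changed 0, so that 3 of 22 were called in each of these 2 comparisons, beside 17.2% and 20.9% of all genes. Of 20 other ligands and receptors upstream of ERK, 8 were lower and 3 higher in chow-fed mice, beside the same shares of all genes. The platelet-derived growth factor (PDGF) receptors Pdgfrb (-2.62) and Pdgfra (-2.32), their ligand Pdgfb (-2.54) and hepatocyte growth factor Hgf (-1.84) were lower, and Egfr (1.45) was higher. High-dose zalfermin lowered 4, among them Pdgfa (-0.65), Hgf (-0.60) and Tgfa (-0.35), and raised Met (0.50) and Insr (0.48). The combination lowered 5, among them Hgf (-0.96), Pdgfrb (-0.86), Pdgfb (-0.82) and Pdgfa (-0.56) and raised 0, which makes 6 and 5 of 20 called beside 17.2% and 20.9% of all genes. Neither Myc nor Egr1 targets passed the threshold in any treated group. Pdgfrb also marks stellate cells, whose markers were lower in 3 of 8 genes under high-dose zalfermin and in 6 of 8 in the combination.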

How the data were processed

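RNA from liver samples of 56 mice was sequenced by the authors as stranded mRNA libraries, and the deposited table holds raw read counts per gene for each mouse. The study's methods name the aligner STAR and genome GRCm38, and the submitters' processing notes name Trim Galore 0.6.4 and Salmon 1.9.0. Which tool gave the counts, and whether counting used strand, is not settled by these sources. No count was normalized before deposit. The most similar pair of mice in a group differed by 6.67 per degree of freedom in a chi-square comparison of their counts, so all 56 were kept as separate samples. The labels name separate mice.

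Of 21935 genes, the 14105 that reached 5 reads in at least 3 mice were tested. R 4.3.3 with edgeR 4.0.16 was used, with TMM scaling, a single quasi-likelihood model of the 7 groups with no covariate, and two-sided F tests of 17 comparisons. Adjusted p-values are Benjamini-Hochberg values over all genes tested, with a threshold of 0.05, and single-gene p-values are those of edgeR unless DESeq2 is named. Standard errors were derived from the F statistic, and 95% intervals from the degrees of freedom of the fit. CPM used normalized library sizes, and log2 CPM a prior count of 2. Correlations used NumPy 2.4.6, and figures matplotlib 3.10.9. Gene models came from the GENCODE annotation of GRCm38. The steps were tested on simulated data.

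The alternatives were DESeq2 1.42.0, DESeq2's size factors, a filter of only 1 read, a filter of 10 reads in at least 8 mice, adding the number series to the model, fitting the compared groups alone, and omitting each mouse. For correlations they were a prior count of 0.5, number series means removed and each mouse left out. Leaving out number series D was chosen after seeing the data.

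The members and gene lists were chosen with earlier results of these data known. Besides all members, the text names at most 6 genes per list and comparison, the called genes of largest fold change whose mean reached 1 CPM. Fgf21, Klb and Fgfr1 to Fgfr4 are named in any case, and so are the 3 genes most like each member. Myc and Egr1 target genes, Egr3, Errfi1 and Ier2 in chow-fed mice and Klf4 in single mice were named in addition after their values were seen. Cell type and proliferation markers past the threshold are counted beside the comparisons with vehicle. A result on 1 listed gene is not reported here.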

Additional observations from a re-analysis of the deposited data

Results flagged for a closer look

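In 6 of 70 groups of 8 mice (10 members in 7 groups), the highest mouse lay farther from its nearest neighbour, relative to the range of the group, than Dixon's 95% critical value allows, and chance alone gives about 1 in 20 such groups. Spry4 reached 19.94 CPM in low-dose semaglutide mouse 6, the liver with few stellate cell and macrophage transcripts, and 29.15 CPM in high-dose semaglutide mouse 3. Egr1 reached 188.9 CPM in chow-fed mouse 7, 49.69 CPM in high-dose zalfermin mouse 2 and 45.39 CPM in low-dose semaglutide mouse 4. Myc reached 27.64 CPM in combination mouse 2. Neither 12.8 nor 13.2 CPM of Fos in chow-fed mice 7 and 8 was singled out, since each is the nearest neighbour of the other.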

How the results depend on the processing

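Without number series D, a choice made after seeing the data, the log2 fold change of Fos turned from higher to -0.93 in chow-fed against DIO-MASH vehicle mice, and from lower to 0.73, 0.38 and 0.49 for high-dose zalfermin, high-dose semaglutide and the combination against chow-fed mice. With the number series as a covariate the last 3 were 0.35, 0.011 and 0.15, and chow-fed against vehicle was -0.35. The count of members past the threshold without series D was 0 for high-dose zalfermin and 0 for the combination against vehicle, and 3, 3 and 2 for high-dose zalfermin, high-dose semaglutide and the combination against chow-fed mice. For the combination against vehicle it was 0 without a filter beyond 1 read, 0 with the covariate and 2 when only the groups compared were fitted. For high-dose zalfermin against vehicle it was 2 by DESeq2 and 2 with only the groups compared. Against chow-fed mice, fitting only the groups compared gave 3 for high-dose semaglutide and 2 for the combination. With number series means removed, 10 pairs of members correlated in place of 4. The cause of these shifts was not tested.

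With each mouse left out in turn, counts ranged from 3 to 5 for chow-fed against vehicle (5 without chow-fed mouse 2, 3 or 6), from 0 to 2 for high-dose zalfermin and from 0 to 1 for the combination against vehicle, and from 4 to 6, from 4 to 6 and from 2 to 5 for high-dose zalfermin, high-dose semaglutide and the combination against chow-fed mice. The 2 for the combination came without chow-fed mouse 7. Correlated pairs ranged from 3 to 8, with 8 without chow-fed mouse 7. Every other comparison gave 0 throughout. No paired analysis was possible because the labels give no replicate numbers shared between groups. Members with few reads, such as Spry2 with as few as 7 in a mouse, have intervals too wide to show small changes.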
